A study of Mus musculus with 12 samples.

Results

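Chemokine receptors are proteins of the cell surface that read gradients of chemokines, the small secreted proteins that steer migrating leukocytes. Each couples to an inhibitory G protein, and binding of the chemokine sets off adhesion and crawling before arrestins, receptor kinases and RGS proteins end the signal. The set of receptors a T cell transcribes is therefore widely used to describe where it has been and where it can go: lymph node, follicle, gut, bone marrow, or an inflamed or resident site such as the liver sinusoid. Described here are 9 such genes, Ccr2, Ccr6, Ccr7, Ccr9, Cxcr3, Cxcr4, Cxcr5, Cxcr6 and Cx3cr1, given as a list of names, out of 52459 genes in the table. All 9 had enough reads to be tested, among 16218 genes in all.

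RNA was sequenced from γδ and CD4+ T cells isolated by cell sorting from mice that were 7 weeks old at the start and then ate a methionine- and choline-deficient (MCD) diet or a control diet for 6 weeks. Mice on an MCD diet develop steatohepatitis, a fatty and inflamed liver. There were 6 groups of 2 libraries: γδ T cells from wild-type (WT) animals on the MCD diet (replicates 2 and 4) and on the control diet (replicates 6 and 7), CD4+ T cells of γδTCR-/- mice on the MCD diet and on the control diet (replicates 1 and 2 in both), and CD4+ T cells of WT mice on the MCD diet (replicates 1 and 3) and on the control diet (replicates 2 and 3). γδ T cells carry a receptor of a γ and a δ chain, CD4+ T cells carry one of α and β chains, and the γδTCR-/- mice, called knockout below, are by their name mice without the γδ receptor. The labels give neither the tissue, the sort markers, the deleted gene nor whether the replicates were separate mice, so p-values speak only of the spread among these libraries. No γδ cells came from knockout mice, so genotype was compared in CD4+ cells and cell type in WT mice.

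Total counts per library were 17035638 to 23203603, of which genes of the mitochondrial genome took 40.8% to 56.8%. The γδ MCD libraries stood apart, with 8989 and 10125 genes at 10 or more counts, against 11903 to 13402 in the other 10, and the label of γδ MCD replicate 2 carries a double code. Cd4 read 0.975 to 4.29 CPM (counts scaled to library size with TMM factors) in γδ libraries and 632 to 1448 CPM in CD4+ libraries. Trdc, the δ constant gene, had 7552 to 14401 counts in γδ libraries and 5 to 165 counts in CD4+ libraries. These 2 genes match the cell labels but do not check the genotype. Trac, the α constant gene, read 30.1 to 87.2 CPM in γδ libraries and 338 to 655 CPM in CD4+ libraries. Cd8a read 51.7 to 322 CPM in γδ libraries and 0.0488 to 11.2 CPM in CD4+ libraries. Which cells of the γδ libraries carried Trac and Cd8a was not tested. The γδ libraries also held transcripts that serve as markers of other cells, and which cells they came from was not tested. Of 16 monocyte, macrophage and Kupffer cell markers, 13 to 16 were detected in γδ libraries with a summed 1213.61 to 2968.59 CPM, and 10 to 15 in CD4+ libraries with 34.8 to 118 CPM. Dendritic cell markers (13 genes) summed to 598 to 845 CPM in γδ and 37.6 to 97.7 CPM in CD4+ libraries, and natural killer (NK) cell markers (9 genes) to 302 to 632 CPM in γδ and 21.0 to 93.6 CPM in CD4+ libraries. B cell markers (12 genes) summed to 279 to 606 CPM in γδ and 220 to 630 CPM in CD4+ libraries.

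**Figure D1:**
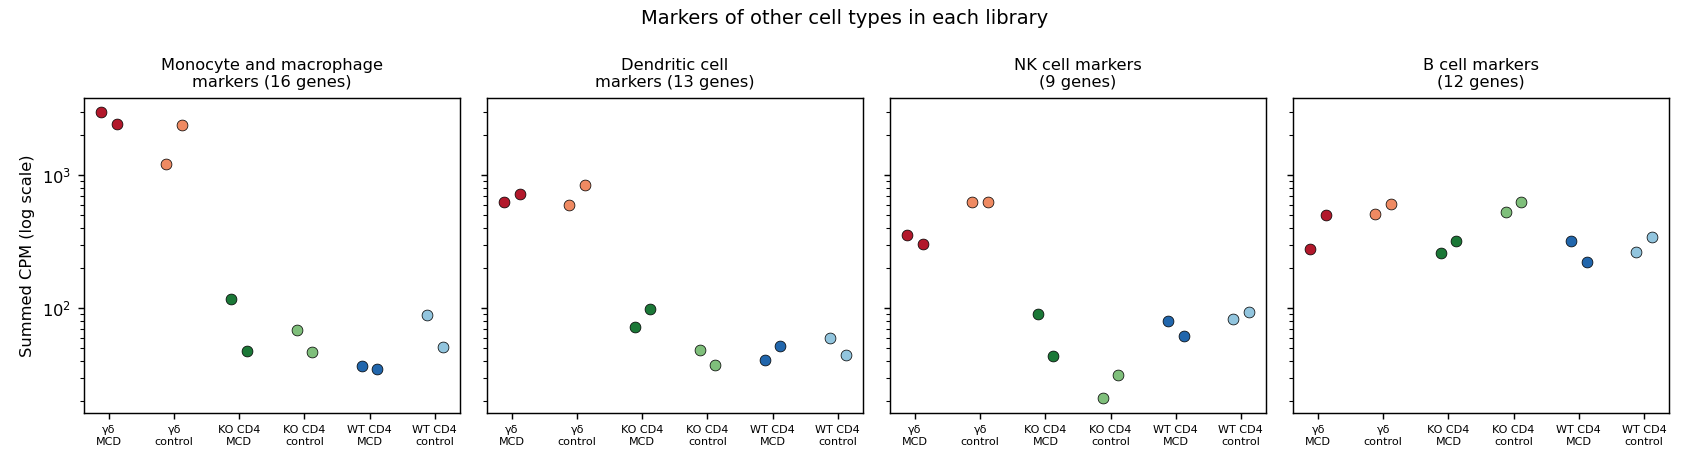
Summed CPM, on a log axis, of marker genes of 4 other cell types in each of the 12 libraries, 1 point per library, with the γδ groups at the left and the CD4+ groups of knockout (KO) and WT mice after them. The monocyte and macrophage sum was 1213.61 to 2968.59 CPM in γδ libraries and 34.8 to 118 CPM in CD4+ libraries, while the B cell sums of both cell types overlapped.

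The 9 genes lie on 5 chromosomes, given here in GRCm38 with the GENCODE vM21 annotation. Ccr9 (chr9:123678439-123784330), Cxcr6 (chr9:123806475-123811760), Ccr2 (chr9:124101950-124113557), Cx3cr1 (chr9:119901616-120069879) and Cxcr5 (chr9:44511787-44561877) share chromosome 9. Cxcr6 lies within Fyco1, on the other strand, and shares no exon base with it. Ccr6 is at chr17:8236043-8257141, Ccr7 at chr11:99144196-99155077, Cxcr3 at chrX:101731535-101734269 and Cxcr4 at chr1:128588199-128592293. The Ccr9 model shares 18.8% of its exon bases with AC165425.1, a noncoding transcript on the other strand, and 2.62% with Gm17200 on its own strand, the Cxcr5 model 3.30% with Bcl9l and the Cx3cr1 model 1.73% with an antisense transcript, Gm33858. Whether reads were counted by strand is not given in the sources used here, so reads there could have been split between partners.

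Promoter sequences of 7 of the 9 genes were found in RefSeq (GRCm38.p6), each running from 250 bases before the start of transcription to 50 after it; Ccr7 and Cxcr5 are named only. Shown are those of Cx3cr1, Ccr2, Ccr6 and Cxcr6, the genes whose transcripts were higher in γδ than in CD4+ T cells in the test below. Capitals mark matches, on either strand, to 4 short motifs: CACCC (the KLF box), TGTGGT (a RUNX site), AGGTGT (a T-box core) and AGGTCA (the core of ROR and other nuclear receptor sites).
Cx3cr1 (chr9:120068247-120068546, minus strand): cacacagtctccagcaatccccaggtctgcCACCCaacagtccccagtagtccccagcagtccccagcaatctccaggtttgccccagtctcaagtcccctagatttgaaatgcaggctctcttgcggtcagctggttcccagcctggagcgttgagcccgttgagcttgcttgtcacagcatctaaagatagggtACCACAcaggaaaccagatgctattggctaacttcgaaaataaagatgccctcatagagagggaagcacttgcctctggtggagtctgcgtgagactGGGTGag
Ccr2 (chr9:124101933-124102232, plus strand): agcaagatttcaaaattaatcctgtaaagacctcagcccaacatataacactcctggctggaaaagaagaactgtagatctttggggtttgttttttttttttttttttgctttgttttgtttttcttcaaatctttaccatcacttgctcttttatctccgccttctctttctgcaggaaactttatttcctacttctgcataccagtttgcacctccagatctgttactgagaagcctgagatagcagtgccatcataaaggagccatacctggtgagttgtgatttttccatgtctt
Ccr6 (chr17:8235793-8236092, plus strand, the first of 2 promoters): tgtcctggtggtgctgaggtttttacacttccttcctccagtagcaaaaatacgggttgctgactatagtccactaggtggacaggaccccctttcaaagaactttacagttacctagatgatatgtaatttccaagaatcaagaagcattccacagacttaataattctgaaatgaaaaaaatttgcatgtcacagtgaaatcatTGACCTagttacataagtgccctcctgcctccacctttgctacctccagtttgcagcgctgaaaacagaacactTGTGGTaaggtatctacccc
Cxcr6 (chr9:123806227-123806526, plus strand): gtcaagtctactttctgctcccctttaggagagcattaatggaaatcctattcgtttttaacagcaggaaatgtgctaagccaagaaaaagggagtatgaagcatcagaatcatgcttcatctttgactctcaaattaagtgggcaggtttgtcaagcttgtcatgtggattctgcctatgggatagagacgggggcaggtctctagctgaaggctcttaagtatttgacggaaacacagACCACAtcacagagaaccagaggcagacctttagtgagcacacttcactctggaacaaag
The Cx3cr1 window held CACCC at -220 and, on the opposite strand, at 44, and TGTGGT on the opposite strand at -54, counted from the start of transcription. The Ccr6 window held TGTGGT at 31 and AGGTCA on the opposite strand at -44, the Cxcr6 window TGTGGT on the opposite strand at -10, and the Ccr2 window none of the 4. No 2 matches overlapped. Of 32851 mouse promoters of this length, 57.5% held CACCC, 16.8% TGTGGT, 13.7% AGGTGT and 16.3% AGGTCA, so each is a common string, and these matches are a description and not binding sites.

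Cx3cr1, Ccr2, Cxcr6 and Ccr6 were higher in γδ T cells than in CD4+ T cells of WT mice. With both diets averaged, these 4 of the 9 receptors rose and 0 fell at an adjusted p below 0.05 (edgeR's quasi-likelihood test, adjusted over all genes by the Benjamini-Hochberg method), against 5.96% of all 16218 genes called. On the MCD diet 2 rose (2.65% of all genes called) and on the control diet 1 (0.654%), in the same test. The 2 γδ and the 2 CD4+ libraries did not overlap for 7 of 9 receptors on the MCD diet, 5 higher and 2 lower (46.5% of all genes did not overlap, in either direction), and for 7 of 9 on the control diet, again 5 and 2 (45.9%). The median log2 fold change of the 9 receptors was 0.62, and that of all genes -0.23. In sorted bulk RNA, fewer cells of a type and less RNA per cell cannot be told apart.

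**Figure D2:**
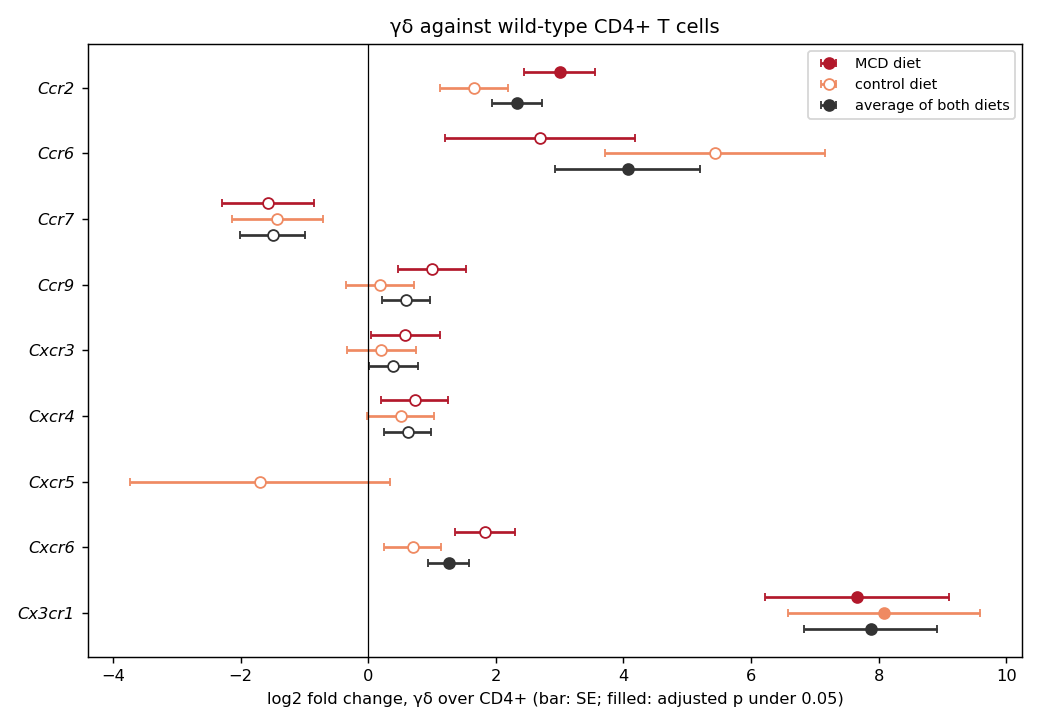
Log2 fold change of each receptor in γδ over WT CD4+ T cells (horizontal axis) on the MCD diet, on the control diet and averaged over both; bars are standard errors of the fit and filled points have an adjusted p under 0.05. Cx3cr1 stands at 7.67, 8.08 and 7.87 on the log2 scale, all filled, and Cxcr5 is drawn only for the control diet because both γδ MCD libraries held 0 counts.

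Cx3cr1 encodes the receptor of the membrane-bound chemokine CX3CL1 (fractalkine) and marks patrolling monocytes, several tissue macrophages, and cytotoxic NK and T cells. Cx3cr1 read 73.1 and 120 CPM in γδ MCD and 97.8 and 55.9 CPM in γδ control libraries, against 0.0983 and 0.647 CPM in WT CD4+ MCD and 0.368 and 0 CPM in WT CD4+ control libraries. Every γδ library stood above every CD4+ library. The log2 fold change averaged over diets was 7.87 (SE 1.04, adjusted p = 0.000498 in edgeR's quasi-likelihood test), 7.67 on the MCD diet (SE 1.45, adjusted p = 0.0156) and 8.08 on the control diet (SE 1.51, adjusted p = 0.0154). Summed counts were 2668 in γδ and 16 in CD4+ libraries on the MCD diet, a ratio after scaling to library size of 259 (95% exact interval 159 to 454), and 2956 and 8 on the control diet, a ratio of 434 (220 to 1006.6); these intervals cover counting error only. The first ratio was 153 without WT CD4+ MCD replicate 1 and 1005.29 (278 to 8305.29) without replicate 3, which leaves 2 CD4+ counts. The second was 211 without WT CD4+ control replicate 3 and at least 596.1 at a floor of 3 counts without replicate 2, which held all 8. On the MCD diet the call was lost without WT CD4+ MCD replicate 1 (adjusted p = 0.0671) and with only the compared groups fitted (adjusted p = 0.123).

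Ccr2 encodes the CCL2 receptor that draws inflammatory monocytes out of the bone marrow and is also carried by effector and IL-17-producing T cells. Ccr2 read 633 and 317 CPM in γδ MCD and 245 and 397 CPM in γδ control libraries, against 72.6 and 46.1 CPM in WT CD4+ MCD and 85.9 and 117 CPM in WT CD4+ control libraries. The lowest γδ library thus exceeded the highest CD4+ library. The averaged log2 fold change was 2.33 (SE 0.39, adjusted p = 0.00368); Ccr2 was 8.0-fold higher on the MCD diet (log2 3.0, SE 0.56, adjusted p = 0.0185) and 3.17-fold higher on the control diet, where it did not pass (log2 1.66, SE 0.53, adjusted p = 0.256). The difference of diet effects between γδ and CD4+ cells was 1.33 on the log2 scale (SE 0.74) and did not pass either (adjusted p = 0.537). The MCD call was lost without WT CD4+ MCD replicate 3 (adjusted p = 0.0675) and with only the compared groups fitted (adjusted p = 0.143), and the control diet value passed without either γδ MCD library.

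Both Cx3cr1 and Ccr2 are transcribed in monocytes and macrophages as well as in T cells. Markers of those cells were also higher in γδ than in CD4+ libraries. Their sum was 2968.59 and 2415.93 CPM in γδ MCD replicates 2 and 4, and 1213.61 and 2365.72 CPM in γδ control replicates 6 and 7. In both γδ groups Ccr2 was higher in the library with the higher sum, and Cx3cr1 was higher in the other library. Lyz2, the lysozyme of myeloid cells, read 616 to 1616 CPM in γδ libraries and 2.59 to 29.7 CPM in CD4+ libraries. Csf1r, the receptor that macrophages need for survival, read 138 to 273 CPM in γδ libraries and 2.75 to 11.3 CPM in CD4+ libraries. Of 15 tested monocyte and macrophage markers, 6 rose in γδ cells averaged over diets (among them Lyz2, Csf1r, Cd68 and Itgam), with 0 called lower. Among the NK markers, 3 of 7 tested rose (Ncr1, Tyrobp and Gzma). The part of these cells in the receptor values was not tested.

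Cxcr6 binds CXCL16, which the lining cells of liver sinusoids display, and marks resident and patrolling lymphocytes of the liver. Cxcr6 read 176 and 127 CPM in γδ MCD and 165 and 201 CPM in γδ control libraries, against 48.7 and 36.4 CPM in WT CD4+ MCD and 118 and 109 CPM in WT CD4+ control libraries. All 4 γδ libraries stood above all 4 CD4+ libraries, with the narrowest gap on the control diet. The averaged log2 fold change was 1.26 (SE 0.32, adjusted p = 0.0377), with 1.83 on the MCD diet (3.56-fold, SE 0.47, adjusted p = 0.0545) and 0.69 on the control diet (SE 0.45, adjusted p = 0.561). The averaged call was lost when counts were scaled by library size alone (log2 0.57, adjusted p = 0.224) and without any 1 of 6 libraries (both γδ control, both WT CD4+ MCD and both WT CD4+ control libraries). The value on the MCD diet passed under 8 of 11 other settings and without any 1 of 5 libraries.

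Ccr6, the CCL20 receptor found on IL-17-producing T cells and on B cells, had the lowest mean FPKM of the 4 receptors that rose, in both γδ groups. Ccr6 read 34.8 and 12.03 CPM in γδ MCD and 17.7 and 20.7 CPM in γδ control libraries, against 4.91 and 2.17 CPM in WT CD4+ MCD and 0.690 and 0 CPM in WT CD4+ control libraries. The groups did not overlap on either diet. The averaged log2 fold change was 4.06 (SE 1.13, adjusted p = 0.0428), with 2.69 (SE 1.48, adjusted p = 0.287) on the MCD diet and 5.44 (SE 1.73, adjusted p = 0.212) on the control diet, where 730 γδ counts stood against 15 CD4+ counts (ratio after scaling to library size 57.2, 95% exact interval 34.4 to 103, counting error only). WT CD4+ control replicate 2 held all 15, and the ratio was 27.7 without replicate 3 and at least 147 at a floor of 3 counts without replicate 2. This call was lost under library-size scaling, with only the compared groups fitted, and without γδ control replicate 7, WT CD4+ MCD replicate 1 or 3, or WT CD4+ control replicate 3 (adjusted p up to 0.152), while the control diet value passed without γδ MCD replicate 4. In a list of type 17 genes, 5 of 7 tested rose in γδ cells (among them Il23r, Il17a and Il1r1) with a median log2 fold change of 5.64.

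The receptors of lymphoid tissue lay lower in γδ cells without passing the test. Ccr7 guides naive and central memory T cells into lymph nodes along CCL19 and CCL21. Ccr7 read 3.88 and 40.5 CPM in γδ MCD and 33.4 and 35.3 CPM in γδ control libraries, against 84.2 and 48.5 CPM in WT CD4+ MCD and 91.5 and 93.2 CPM in WT CD4+ control libraries. The γδ and CD4+ libraries did not overlap, and γδ MCD replicate 2 was the lowest of the 12. The averaged log2 fold change was -1.5 (SE 0.51, adjusted p = 0.0941), with -1.57 on the MCD diet (SE 0.72, adjusted p = 0.222); the averaged value passed under 4 of 11 other settings and without either γδ MCD library, and the control diet value (log2 -1.43, SE 0.72, adjusted p = 0.473) also passed without either of them.

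Beside Ccr7, the regulators of the naive and central memory state and other trafficking genes were counted. Of 7 tested naive and central memory regulators, 3 fell in γδ cells averaged over diets: Klf2 by 1.56, Lef1 by 1.13 and Satb1 by 1.18 on the log2 scale (adjusted p = 0.0397, 0.0386 and 0.00120). Klf2 is the factor that drives S1pr1 transcription. S1pr1, the receptor with which T cells leave lymph nodes, fell by 1.27 on the log2 scale (adjusted p = 0.0412). Of 20 tested trafficking genes, S1pr1 was the only one called lower, and 5 rose: Cd44, Itga1, Itgae, Itgal and Selplg, which encode adhesion proteins.

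Cxcr5 leads B cells and follicular helper T cells to CXCL13 in follicles. Cxcr5 had 0 counts in both γδ MCD libraries and 0.814 and 0 CPM in γδ control libraries, against 7.47 and 0.693 CPM in WT CD4+ MCD and 1.24 and 1.86 CPM in WT CD4+ control libraries. At a floor of 3 counts per library, Cxcr5 was at least 18.2-fold lower in γδ than in CD4+ cells on the MCD diet, by mean CPM. This bound was 3.08-fold without WT CD4+ MCD replicate 1 and 33.3-fold without replicate 3. The averaged difference did not pass (adjusted p = 0.0889). Of 8 tested genes of follicular helper cells, 3 fell in γδ cells averaged over diets (Il21, Tox2 and Slamf6) and 1 rose (Bcl6, the regulator of that fate).

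Ccr9, Cxcr3 and Cxcr4 did not pass between cell types, and their direction turned with the scaling. Ccr9, the CCL25 receptor of gut-homing and thymic T cells, had an averaged log2 fold change of 0.59 (SE 0.38, adjusted p = 0.350). Cxcr3, the receptor of CXCL9 and CXCL10 on type 1 T cells, had 0.39 (SE 0.38, adjusted p = 0.572), with 80.8 and 57.2 CPM in γδ MCD and 59.2 and 31.7 CPM in γδ control libraries, against 56.1 and 36.1 CPM in WT CD4+ MCD and 46.1 and 32.9 CPM in WT CD4+ control libraries. Cxcr4, the CXCL12 receptor that holds cells in bone marrow, had 0.62 (SE 0.37, adjusted p = 0.318). Scaling by library size alone moved the median of all genes by -0.61 on the log2 scale in this comparison and gave -0.11, -0.29 and -0.03 for Ccr9, Cxcr3 and Cxcr4. Of 8 tested type 1 genes, 1 rose in γδ cells (Il18r1, a chain of the IL-18 receptor, log2 2.06, adjusted p = 2.82e-05) and 0 fell.

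The make-up of the receptor transcripts was set out per gene length, as shares of the summed FPKM (fragments scaled to gene length and library depth, as the authors deposited them) of the 9 genes. Cxcr6 took 22.0% to 42.3% in γδ libraries and Ccr2 15.6% to 28.5%, while Ccr7 took 0.60% to 7.27%. In knockout CD4+ control libraries Ccr7 alone took 53.2% and 64.9%, against 19.9% to 29.8% in the other 6 CD4+ libraries. Cxcr6 took 35.5% and 36.1% in WT CD4+ control libraries against a range of 4.91% to 21.9% over the remaining CD4+ groups. Cxcr4 took 24.9% and 30.5% in WT CD4+ MCD libraries, against 7.21% and 9.63% in WT CD4+ control libraries. These shares are levels within a library and were not tested.

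**Figure D3:**
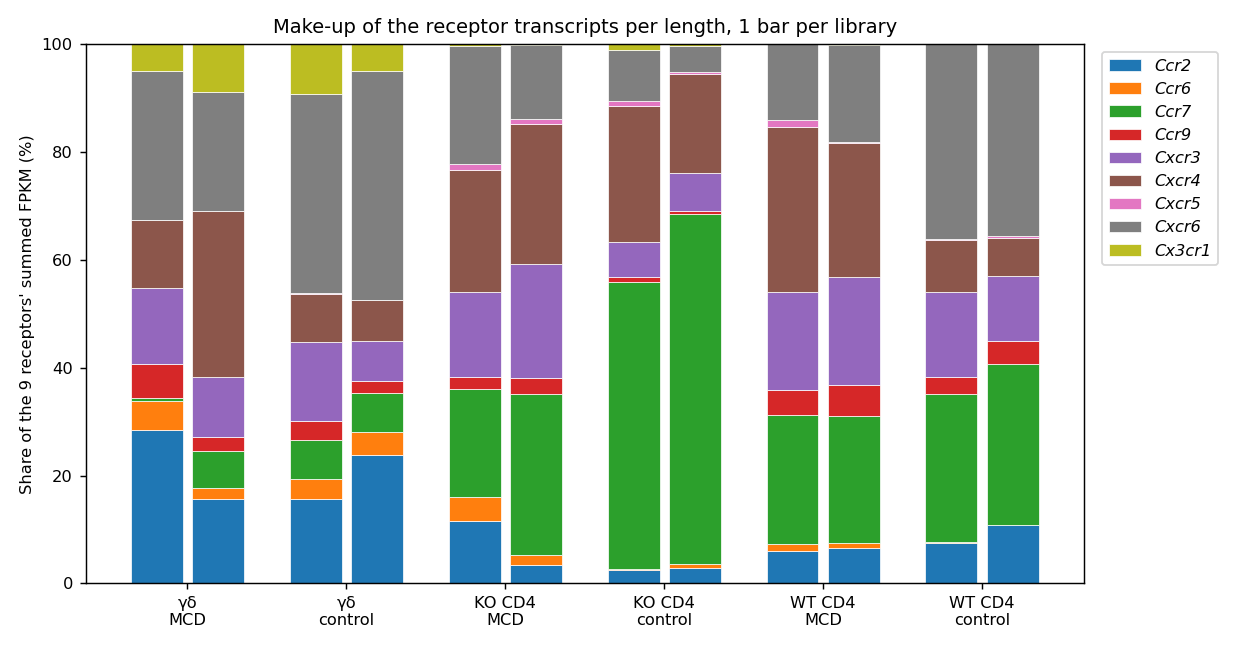
Share of each receptor in the summed FPKM of the 9 genes (vertical axis, percent), 1 bar per library, the γδ groups left of the CD4+ groups of knockout (KO) and WT mice. Ccr7 fills 53.2% and 64.9% of the KO CD4 control bars and 0.60% to 7.27% of the γδ bars, and Cx3cr1 is visible mainly in the γδ bars.

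By mean FPKM the order in γδ MCD cells was Cxcr6 (78.6), Ccr2 (70.5), Cxcr4 (66.2), Cxcr3 (39.9), Cx3cr1 (21.3), Ccr9 (14.5), Ccr6 (11.6), Ccr7 (11.1) and Cxcr5 (0). Only Cxcr3 and Cx3cr1, and Ccr7 and Cxcr5, were neighbours without overlapping libraries. In γδ control cells Cxcr6 (89.0 FPKM) and Ccr2 (44.6 FPKM) led, each clear of the next gene. In knockout CD4+ cells on the MCD diet Ccr7 (35.4 FPKM) and Cxcr4 (34.6 FPKM) led with overlapping libraries. In knockout CD4+ control cells Ccr7 (113 FPKM) and Cxcr4 (42.6 FPKM) led with no overlap. WT CD4+ MCD cells were led by Cxcr4 (38.4 FPKM), Ccr7 (32.0 FPKM), Cxcr3 (25.4 FPKM) and Cxcr6 (21.1 FPKM), each overlapping the next, and WT CD4+ control cells by Cxcr6 (55.4 FPKM) and Ccr7 (44.2 FPKM), with no overlap.

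**Figure D4:**
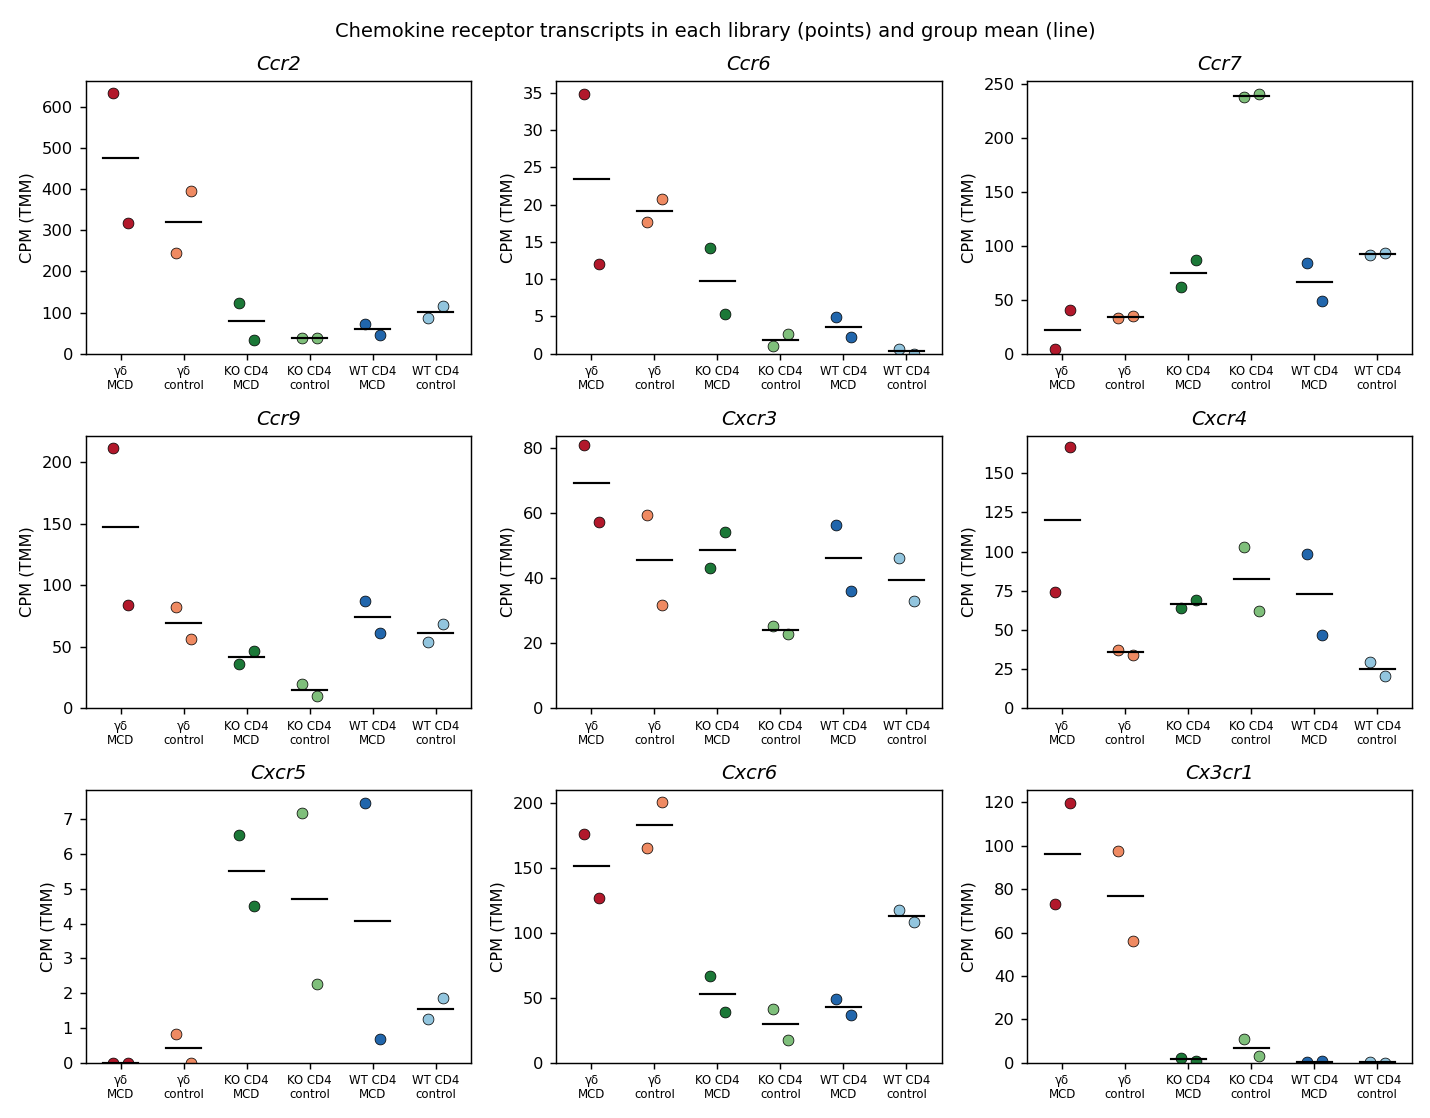
CPM of each receptor in each of the 12 libraries (points) with the mean of the 2 libraries of a group (line); each panel has its own linear axis from 0, and each MCD group stands left of its control diet group. Ccr7 is highest in the KO CD4 control libraries (238 and 241 CPM), Cx3cr1 and Ccr2 are highest in γδ libraries, and Cxcr4 is lowest in the WT CD4 control libraries (29.4 and 20.6 CPM).

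Within γδ cells the question was whether receptors differed between the diets. Cxcr4 and Ccr9 stood higher without overlap on the MCD diet. None of the 9 receptors passed edgeR's test, and 0% of all genes did. There, 1 receptor and 2839 of 16218 genes had an unadjusted p under 0.05. DESeq2 called 1 receptor and limma-voom 0, and the other settings, these 2 among them, called 0 to 2105 genes in all. Cxcr4 and Ccr9 were the 2 of 9 receptors that did not overlap between diets, both higher, against 33.2% of all genes. Cxcr4 read 74.1 and 167 CPM in γδ MCD libraries, against 37.0 and 34.2 CPM in γδ control libraries, a 3.38-fold difference (log2 1.76, SE 0.54, adjusted p = 0.156 in edgeR). Cxcr4 was the receptor that DESeq2 called, and it also passed in edgeR without γδ MCD replicate 2 (adjusted p = 0.0133).

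Ccr9 read 212 and 83.6 CPM in γδ MCD libraries, against 82.4 and 55.8 CPM in γδ control libraries (log2 1.09, SE 0.54, adjusted p = 0.304), the lower MCD library lying close to the higher control library; without γδ MCD replicate 4 it passed (adjusted p = 0.0448). The other 7 receptors overlapped between diets. Ccr2 had a log2 fold change of 0.57 (SE 0.52, adjusted p = 0.588), and without γδ MCD replicate 2 it was -0.01. Ccr7 had -0.62 (SE 0.71, adjusted p = 0.672), set by replicate 2 at 3.88 CPM: without that library it was 0.25, and without γδ MCD replicate 4 it was -3.12 and passed (adjusted p = 0.000752).

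Markers of other cells moved with the diet in γδ libraries. Liver endothelial markers (12 genes) summed to 162 and 149 CPM in γδ MCD libraries, against 839 and 1573 CPM in γδ control libraries, with 12 of 12 lower, 8 at an unadjusted p under 0.05 and 0 past edgeR's test. Neutrophil markers (8 genes) summed to 100.9 and 187 CPM in γδ MCD libraries, against 33.7 and 64.7 CPM in γδ control libraries. Of 5 tested neutrophil markers, 4 lay higher and 1 lower. NK markers summed to 353 and 302 CPM in γδ MCD libraries, against 632 and 622 CPM in γδ control libraries. Of 7 tested NK markers, 2 lay higher and 5 lower. Their part in the receptor values was not tested.

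In CD4+ cells of WT mice the MCD diet went with lower Cxcr6 and higher Cxcr4 and Ccr6, none of which passed. Of the 9 receptors 0 passed edgeR's test, as did 0% of all genes. An unadjusted p under 0.05 was found for 3 receptors and 346 of 16218 genes, and DESeq2 and limma-voom called 0 receptors. The libraries did not overlap for 5 receptors, 2 higher and 3 lower, against 33.9% of all genes. Cxcr6 (48.7 and 36.4 CPM on the MCD diet, against 118 and 109 CPM on the control diet) was 2.66-fold lower (log2 -1.41, SE 0.46, adjusted p = 1). Cxcr4 (98.5 and 47.0 CPM on the MCD diet, against 29.4 and 20.6 CPM) was 2.91-fold higher (log2 1.54, SE 0.54, adjusted p = 1), and Ccr6 had a log2 fold change of 3.03 (SE 1.56, adjusted p = 1). Ccr2 (-0.77, SE 0.52) and Ccr7 (-0.48, SE 0.70) were the remaining receptors without overlap, both lower, and Ccr9 (0.28) and Cxcr3 (0.22) overlapped. Markers of other cells moved here too. Of 12 tested liver endothelial markers 9 lay lower and 3 higher, and of 9 hepatocyte markers 8 and 1. Of 15 monocyte and macrophage markers 11 lay lower and 3 higher, and of 12 dendritic cell markers 6 and 6. Of these markers 0 passed edgeR's test, and their part in the receptor values was not tested.

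In CD4+ cells of knockout mice the MCD libraries held less Ccr7 and more Ccr6, Ccr9 and Cxcr3 than the control libraries. Of the 9 receptors 0 passed edgeR's test, against 0.037% of all genes. Before adjustment 2 receptors and 982 of 16218 genes had a p under 0.05, and DESeq2 and limma-voom called 0 receptors. The libraries did not overlap for 5 receptors, 3 higher (Ccr6, Ccr9 and Cxcr3) and 2 lower (Ccr7 and Cx3cr1), against 38.9% of all genes. Ccr7 read 62.2 and 87.0 CPM on the MCD diet, against 238 and 241 CPM on the control diet, which was 3.21-fold lower (log2 -1.68, SE 0.72, adjusted p = 0.787). The Ccr7 difference passed without γδ MCD replicate 2 or replicate 4, libraries that enter it only through the shared spread (lowest adjusted p = 0.0207).

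Ccr9 read 35.9 and 46.7 CPM on the MCD diet, against 19.3 and 9.86 CPM on the control diet (log2 1.5, SE 0.54, adjusted p = 0.738). Cxcr3 read 43.1 and 54.1 CPM, against 25.4 and 22.7 CPM (log2 1.012, SE 0.55). Ccr6 read 14.2 and 5.34 CPM, against 1.07 and 2.6 CPM (log2 2.35, SE 1.47). Cx3cr1 was low throughout, with 2.17 and 0.828 CPM, against 10.7 and 2.88 CPM (log2 -2.11, SE 1.11). Ccr2 (1.07), Cxcr6 (0.84) and Cxcr4 (-0.31) overlapped between diets, and Ccr2 turned to -0.13 without knockout MCD replicate 1, which held 124 CPM, against 34.3 CPM in replicate 2.

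Other measures moved with the diet in knockout CD4+ cells too. Mitochondrial genes took 43.9% and 41.1% of counts in knockout MCD libraries, against 52.7% and 51.1% in knockout control libraries. The 7 naive and central memory regulators all lay lower, with 5 at an unadjusted p under 0.05 and 0 past edgeR's test (median log2 fold change -1.06, all genes 0.03). B cell markers summed to 261 and 318 CPM in knockout MCD libraries, against 528 and 630 CPM in knockout control libraries, and NK markers to 90.0 and 43.4 CPM, against 21.0 and 31.4 CPM. Gene by gene, 5 of 12 tested B cell markers lay higher and 7 lower, and 5 of 7 NK markers lay higher and 2 lower. Their part in the receptor values was not tested.

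**Figure D5:**
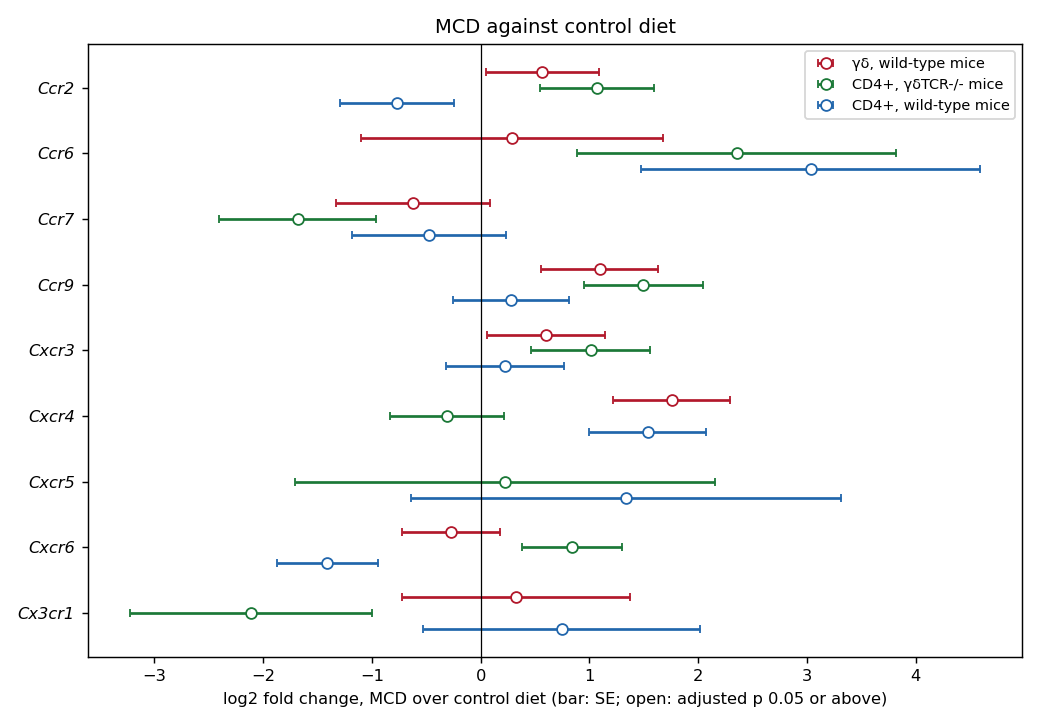
Log2 fold change of each receptor on the MCD over the control diet (horizontal axis) in γδ cells, in knockout CD4+ cells and in WT CD4+ cells; bars are standard errors and every point is open, with an adjusted p of 0.05 or above. Cxcr4 stands at 1.76 in γδ and 1.54 in WT CD4+ cells and at -0.31 in knockout CD4+ cells, and Cxcr6 at 0.84 in knockout and -1.41 in WT CD4+ cells; Cxcr5 is not drawn for γδ cells.

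With both CD4+ genotypes averaged, 0 of 9 receptors passed for diet in edgeR (0.037% of all genes called). An unadjusted p under 0.05 was found for 2 receptors and 986 of 16218 genes. DESeq2 called 1 receptor and limma-voom 0, and the other settings, these 2 among them, called 1 to 196 genes in all. Ccr6 had an averaged log2 fold change of 2.69 (SE 1.07, adjusted p = 0.774) and was the receptor that DESeq2 called. Ccr9 had 0.89 (SE 0.38, adjusted p = 0.785) and Ccr7 -1.08 (SE 0.50, adjusted p = 0.821), which passed without γδ MCD replicate 2. The 4 MCD libraries of both genotypes held 2.17 to 14.2 CPM of Ccr6, against 0 to 2.6 CPM in the 4 control libraries, so these ranges overlapped slightly.

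A gene of the signal's ending passed where the receptors did not. Rgs1, which speeds the switching-off of G proteins below chemokine receptors, read 486 and 485 CPM in knockout CD4+ MCD libraries, against 76.9 and 70.5 CPM in knockout CD4+ control libraries (log2 2.72, SE 0.30, adjusted p = 0.00667 in edgeR). Rgs1 was the only one of 14 tested desensitisation genes called in that comparison, and it also passed with the genotypes averaged (log2 1.64, adjusted p = 0.0156). In WT CD4+ cells alone Rgs1 was not called, with 186 and 257 CPM on the MCD diet, against 145 and 155 CPM (log2 0.56). The difference of its diet effects between genotypes was 2.16 on the log2 scale and did not pass (adjusted p = 0.299 in edgeR). In γδ over CD4+ cells averaged over diets, Rgs2 was the only one of the 14 called (log2 1.38, adjusted p = 0.0383). Of 27 tested genes that couple the receptors to movement, 6 rose in γδ over CD4+ cells averaged over diets and 0 fell: Rac1, Coro1a, Gng2, Pik3cg, Rap1a and Prex1. Their list had a median log2 fold change of 0.43, and all genes one of -0.23. Rac1, a GTPase that drives the leading edge of a crawling cell, read 711 and 761 CPM in γδ MCD libraries, against 198 and 208 CPM in WT CD4+ MCD libraries.

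The comparison of genotypes asked whether CD4+ cells of knockout mice differed from those of WT mice. On the control diet the knockout libraries held more Ccr7, Cxcr4, Cxcr5, Ccr6 and Cx3cr1 and less Ccr2, Ccr9, Cxcr3 and Cxcr6. In all 9 receptors the 2 knockout and the 2 WT libraries did not overlap, 5 higher and 4 lower, against 37.3% of all genes. Of the 9 receptors 0 passed edgeR's test, against 0.0247% of all genes. Before adjustment 5 receptors and 653 of 16218 genes had a p under 0.05. DESeq2 called 3 receptors (Cxcr6, Ccr9 and Cx3cr1) and limma-voom 0. The other settings, these 2 among them, called 2 to 122 genes in all.

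Cxcr6 read 41.4 and 17.8 CPM in knockout control libraries, against 118 and 109 CPM in WT control libraries, 3.82-fold lower (log2 -1.93, SE 0.47, adjusted p = 0.658). Ccr9 read 19.3 and 9.86 CPM, against 53.6 and 68.3 CPM, 4.18-fold lower (log2 -2.06, SE 0.55, adjusted p = 0.762). Cx3cr1 read 10.7 and 2.88 CPM, against 0.368 and 0 CPM, and summed to 280 counts, against 8, a ratio after scaling to library size of 38.0 (95% exact interval 19.0 to 88.8, counting error only; log2 4.60, SE 1.32, adjusted p = 0.762), and it passed without γδ MCD replicate 2, which enters only through the shared spread (adjusted p = 0.0488). That ratio was 16.2 without knockout control replicate 1, 60.1 without knockout control replicate 2, 18.4 without WT control replicate 3 and at least 52.1 at a floor of 3 counts without WT control replicate 2. These 3 had the smallest adjusted p-values among the 9 receptors.

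Cxcr4 read 103 and 62.2 CPM in knockout control libraries, against 29.4 and 20.6 CPM in WT control libraries (log2 1.72, SE 0.54, adjusted p = 1). Ccr7 read 238 and 241 CPM, against 91.5 and 93.2 CPM (log2 1.37, SE 0.72, adjusted p = 1). Ccr2 read 38.0 and 37.2 CPM, against 85.9 and 117 CPM (log2 -1.42, SE 0.53, adjusted p = 1). The replicates of Ccr7 lay close together in both genotypes. Ccr6 had a log2 fold change of 2.12 (SE 1.51) and Cxcr3 of -0.71 (SE 0.55). These 2 also had an adjusted p of 1.

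Other measures moved with the genotype on the control diet. Mitochondrial genes took 52.7% and 51.1% of counts in knockout control libraries, against 42.2% and 41.1% in WT control libraries. NK markers summed to 21.0 and 31.4 CPM, against 82.7 and 93.6 CPM. Gene by gene, 4 of 7 tested NK markers lay higher and 3 lower (median log2 fold change 0.31). B cell markers summed to 528 and 630 CPM in knockout control libraries, against 262 and 344 CPM in WT control libraries. Of 12 tested B cell markers, 9 lay higher and 3 lower (median log2 fold change 0.86). Only Ighm (log2 0.93) had an unadjusted p under 0.05 in edgeR's test. Neutrophil markers summed to 3.27 and 12.2 CPM in knockout control libraries, against 67.1 and 69.3 CPM in WT control libraries. These sums rest on few genes, as 3 and 2 of the 8 markers were detected in knockout and 2 and 3 in WT control libraries. Of 5 tested neutrophil markers, 0 lay higher and 3 lower, and 0 passed edgeR's test. The 7 naive and central memory regulators all lay higher in knockout cells, with 3 at an unadjusted p under 0.05 and 0 past edgeR's test (median log2 fold change 0.72, all genes -0.03). Itga1, the collagen-binding integrin of resident T cells, was the only one of 20 trafficking genes called: 5.80 and 13.99 CPM in knockout, against 71.9 and 130 CPM in WT control libraries (log2 -3.33, adjusted p = 0.0458). Their part in the receptor values was not tested.

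On the MCD diet the genotypes lay closer. Of the 9 receptors 0 passed edgeR's test, as did 0% of all genes. Before adjustment 0 receptors and 337 of 16218 genes had a p under 0.05, and DESeq2 and limma-voom called 0 receptors. The libraries did not overlap for 3 receptors, 2 higher (Ccr6 and Cx3cr1) and 1 lower (Ccr9), against 32.9% of all genes. Ccr9 had a log2 fold change of -0.84 (SE 0.53), Cx3cr1 of 1.75 (SE 1.17) and Cxcr6 of 0.32 (SE 0.45); the last turned to -0.11 without knockout MCD replicate 1.

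The difference of diet effects between genotypes was tested itself, and 0 of 9 receptors and 0% of all genes passed edgeR's test. An unadjusted p under 0.05 was found for 3 receptors and 703 of 16218 genes, and DESeq2 and limma-voom called 0 receptors. For Cxcr6 the diet effect was 2.25 higher on the log2 scale in knockout than in WT cells (SE 0.65, adjusted p = 1). Ccr2 gave 1.84 (SE 0.74) and Cxcr4 -1.85 (SE 0.75), both with an adjusted p of 1. Between cell types in WT mice, 0 of 9 receptors and 0% of all genes passed for a difference of diet effects. Before adjustment 0 receptors and 1714 of 16218 genes had a p under 0.05, and DESeq2 and limma-voom called 0 receptors. Cxcr6 gave 1.14 there (SE 0.64, adjusted p = 0.543), and Ccr7 passed without γδ MCD replicate 4.

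The other chemokine receptors were scarcer or did not pass. Of 10 further conventional receptors 7 were tested, and in γδ over CD4+ cells averaged over diets 1 rose and 1 fell. Cxcr2, the neutrophil receptor for CXCL1 and CXCL2, read 2.64 to 17.3 CPM in γδ libraries and 0 to 0.0983 CPM in WT CD4+ libraries (log2 5.65, adjusted p = 0.0373 in edgeR). The 8 neutrophil markers summed to 33.7 to 187 CPM in γδ and 3.27 to 69.3 CPM in all CD4+ libraries. Cxcr2 is itself among these 8, so their sum is not independent of it. Of the 8, 4 to 5 were detected in γδ libraries and 1 to 5 in CD4+ libraries. Ccr8, a receptor of skin-homing and regulatory T cells, was at 0 in all 4 γδ libraries and at 1.03 to 4.77 CPM in WT CD4+ libraries (adjusted p = 0.0345).

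Ccr4, the receptor of skin-homing and type 2 T cells, ranged from 30.3 to 392 CPM in γδ and from 36.2 to 153 CPM in CD4+ libraries, with the highest value in γδ MCD replicate 2 and no called difference between cell types. Xcr1 reached 39.8 CPM in knockout MCD replicate 2 and Ccr3 read 5.96 and 6.78 CPM in knockout control libraries, with 7.99 CPM in γδ MCD replicate 4. Ccrl2, an atypical receptor, read 9.10 to 39.5 CPM in γδ libraries and 2.16 to 5.03 CPM in WT CD4+ libraries without passing (adjusted p = 0.125). Of 5 atypical receptors, which bind chemokines without G protein signalling, 2 were tested and neither was called between cell types. Among 15 ligands of the 9 receptors 6 were tested, and 2 rose in γδ cells: Cxcl9, a CXCR3 ligand (log2 6.51, adjusted p = 0.00309), and Cxcl16, the CXCR6 ligand (log2 4.31, adjusted p = 0.0391). Cxcl9 read 136 and 3.63 CPM in γδ MCD libraries and 172 and 361 CPM in γδ control libraries, and Cxcl16 30.7 and 1.34 CPM and 18.6 and 83.1 CPM in the same libraries, which also held the macrophage and dendritic cell markers given above.

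Likeness of pattern was measured as the root mean square difference of log2 CPM, each gene centred on its mean, over the 12 libraries. Closest to Ccr2 were Il2ra, which encodes the IL-2 receptor α chain (0.50), and Vamp3 (0.51). Ccr7 was closest to Itga6 (0.41) and Scml4 (0.44), Cxcr3 to Tug1 and Apaf1 (0.28 and 0.29), and Cxcr6 to Dennd4a (0.47) and Apobr (0.48). Cxcr4 was closest to Tex261 and Il7r (both 0.53) and Ccr9 to Fpgt (0.52) and Gtf3c4 (0.55). For the receptors with zeros, the nearest genes lay further away: Cxcr5 and Ippk at 0.87, Ccr6 and Pirb at 1.24, and Cx3cr1 and Tlr3 at 1.41. Among the 9 receptors themselves, Ccr2 and Cxcr6 (0.65) and Ccr9 and Cxcr3 (0.69) were the closest pairs. The 12 points share cell type, library depth and scaling, and no test was made.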

How the data were processed

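RNA of sorted mouse T cells was sequenced in 12 libraries. Per the submitters' processing notes, bcl2fastq, STAR, featureCounts and DESeq2 were used with mm10/GRCm38; versions are not given in the sources used here. The authors deposited raw counts per gene and FPKM values, whose scaling factor per library differs from the count totals for a reason not stated. Counts were tested with edgeR 4.0.16 (R 4.3.3; TMM, filterByExpr with a minimum count of 10, quasi-likelihood test) in 1 fit of all 12 libraries with 6 groups, and p-values were adjusted by Benjamini-Hochberg over 16218 genes with a threshold of 0.05 in each of 11 comparisons. Fold changes use a prior count of 2. DESeq2 1.42.0, limma 3.58.1 (voom, and log2(FPKM + 1) or log2(FPKM + 0.1)), other scalings, filters and left-out libraries served as alternatives. Leaving out libraries in the count ratios was chosen after seeing the data. A count of 3 corresponded to 0.130 to 0.248 CPM. Other receptors were named from a mean of 5 CPM in any group; genes of other lists when they passed the test or had a large change at a mean of 10 CPM or more. The members and lists were chosen with earlier results of these data known. Some genes of these lists are not reported here.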

Additional observations from a re-analysis of the deposited data

How the results depend on the processing

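The number of the 9 receptors called moved as follows. DESeq2 called 1 for diet in γδ cells and 1 for diet averaged over CD4+ genotypes (0 in edgeR), 3 for knockout against WT on the control diet (0 in edgeR, and 1 with no filter on low counts), and 4 for γδ against CD4+ cells on the MCD diet (2 in edgeR, and 0 with only the compared groups fitted). On the control diet, γδ against CD4+ cells gave 2 with no filter, in DESeq2, in limma-voom and with either log2 FPKM setting, against 1 in edgeR. Leaving out 1 library at a time gave 0 to 2 for diet in γδ cells, 0 to 1 for diet in knockout CD4+ cells, for diet averaged over CD4+ genotypes, for knockout against WT on the control diet and for the difference of diet effects between cell types, 1 to 4 and 1 to 5 for γδ against CD4+ cells on the control and MCD diets, and 2 to 5 averaged over diets. The cause was not tested. Scaling by library size alone reversed Ccr9 (-0.11), Cxcr3 (-0.29) and Cxcr4 (-0.034) in γδ over CD4+ cells averaged over diets. Leaving out 1 library reversed Ccr2 (-0.0098 to 0.98) and Ccr7 (-3.12 to 0.25) for diet in γδ cells, Cxcr3 for diet in WT CD4+ cells (-0.13 to 0.51), Ccr2 (-0.13 to 1.72) and Cxcr4 (-0.63 to 0.061) for diet in knockout CD4+ cells, and Cxcr6 for knockout against WT on the MCD diet (-0.11 to 0.64). Of 630 values of the 56 receptor fold changes chosen for reporting, under other settings, 596 kept direction and side of the threshold. The call was lost in 5 and gained in 26, and 3 reversed. Of 672 with a library left out, these were 636, 12, 18 and 6. Fold changes outside the 56 were not counted. Some of those reversed too, among them Ccr6 (-0.66 to 0.85) and Cx3cr1 (-0.078 to 0.78) for diet in γδ cells. Another was Ccr2 for diet averaged over CD4+ genotypes (-0.45 to 0.48). The averaged calls of Cx3cr1 and Ccr2 held in all 11 settings and all 12 leave-outs.

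Counts over all genes were less stable: 966 genes were called for γδ against CD4+ cells averaged over diets, with 471 to 3069 under other settings and 457 to 2795 with a library left out. For the MCD diet these were 430, 9 to 2887 and 108 to 2386, for the control diet 106, 99 to 917 and 69 to 504, for diet in γδ cells 0, 0 to 2105 and 21 to 1683, and for diet in knockout CD4+ cells 6, 3 to 266 and 6 to 136. Diet averaged over CD4+ genotypes gave 6, 1 to 196 and 4 to 96, knockout against WT on the control diet 4, 2 to 122 and 7 to 27, and the difference of diet effects between cell types 0, 0 to 645 and 0 to 733. Diet in WT CD4+ cells gave 0, 0 to 40 and 0 to 1, knockout against WT on the MCD diet 0, 0 to 39 and 0 to 1, and the difference of diet effects between genotypes 0, 0 to 71 and 0 to 21. Replicate numbers were shared as a pair only by the knockout groups. Their same-numbered libraries deviated with a correlation of -0.0059 across 16218 genes. With 2 libraries a group, this value cannot show whether the libraries were paired. A replicate block gave 7 genes and 0 receptors called for diet, against 6 and 0. With 2 libraries a group, receptors near the floor of 3 counts, Cxcr5, Ccr6 and CD4+ Cx3cr1, are limited by depth.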
